A study of Mus musculus with 6 samples.

Results

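The levels of 10 genes that are widely used to describe collagen production and hepatic stellate cells were followed in the livers of fed and fasted mice. Each gene was read from the probe sets whose annotation names that gene and no other. They are Col1a1, Col1a2, Col3a1, Lrat, Reln, Dcn, Lum, Pdgfrb, Acta2 and Tagln, 10 of the 18193 genes measured in this way. They have 20 probe sets in all, and the brightest of each gene over the 6 arrays gave its value.

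Hepatic stellate cells lie between hepatocytes and the sinusoidal endothelium, where they store vitamin A as retinyl esters. In injured liver they lose this store and become contractile, matrix-producing cells, and they are a main source of fibrillar collagen in fibrosis. Some of the 10 genes are also made by portal fibroblasts, vascular smooth muscle and pericytes.

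Liver RNA of male C57BL/6J mice, 8 weeks old and kept on normal chow, was hybridised to 6 one-colour oligonucleotide arrays. Fed mice were wild-type, and fasted mice were either wild-type or Cnot3+/-; each of these 3 groups had 2 arrays, labelled as biological replicates. Cnot3 belongs to the CCR4-NOT deadenylase, which shortens the poly(A) tails of mRNA. Fasted mice were housed alone without food for 24 h. No fed Cnot3+/- group was analysed here, so a fasting response of that genotype cannot be separated from its resting level. How the Cnot3 allele was disrupted, and in which tissues, is not stated in the labels. In bulk liver, fewer cells of a type and less RNA per cell cannot be told apart.

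Levels are log2 values made by the authors with RMA, and their array medians lay between 5.59 and 5.64. Levels no higher than those medians are treated as not distinguished from background. Cnot3 itself stood at 9.45 and 9.60 in fed wild-type, 9.27 and 9.32 in fasted wild-type, and 9.40 and 9.16 in fasted Cnot3+/- liver. The genotypes differed by -0.01 (95% interval -0.33 to 0.30), so this probe set did not separate them; where it lies relative to the deletion is not given. The 8 measured hepatocyte markers were above the array medians on all 6 arrays. Among 24 other measured markers of stellate cells and pericytes, 22 were above the medians on all 6 arrays and 0 were below them on every array. The median gene itself had a mean level of 6.74, above the array medians, so clearing them is not particular to these markers. Tests were made with limma in 1 fit of 18193 genes, with Benjamini-Hochberg adjustment, and a gene is called at an adjusted p under 0.05. With 2 arrays a group, precision is limited, and an exact permutation test could not have reached the threshold.

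After the fast, 5 of the 10 genes passed the test in wild-type liver. Col3a1, Lrat, Tagln and Col1a1 fell, and Dcn rose. Col1a1 was under the array medians on every array. The other 5 did not pass, and their differences ran from -0.81 to -0.10. Of all genes, 3.15% fell, 1.87% rose and 5.02% changed in either direction in the same comparison. That share includes dim genes: a fit of only the 9096 genes above the median level called 846 of them. It called 4 of the 8 genes of the set that it kept. The median difference of the 10 genes was -0.54, against 0.02 over all genes. The 2 groups did not overlap for 7 of the 10 genes, and for 50.8% of all genes.

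**Figure D1:**
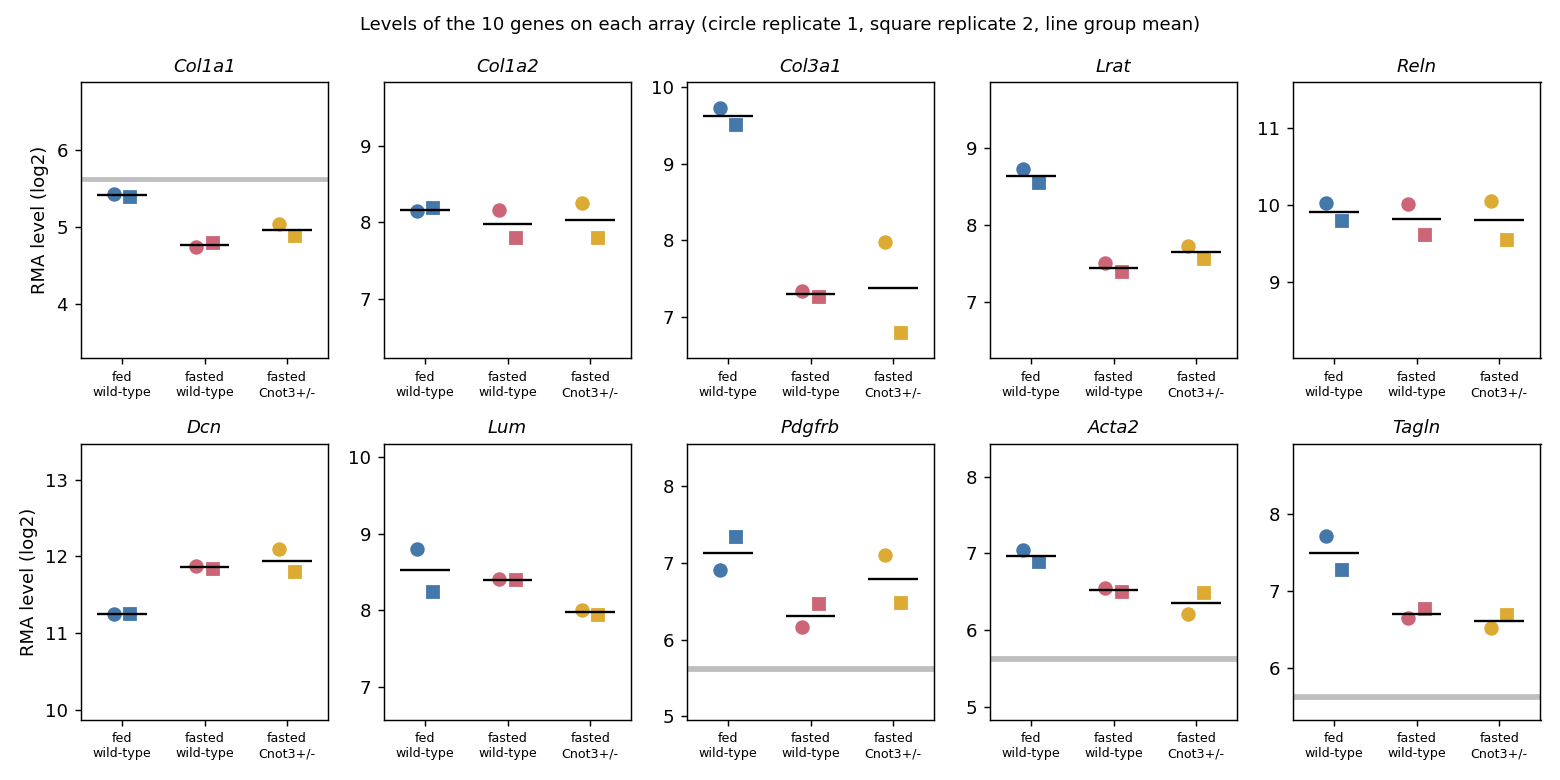
RMA level (log2, y axis) of the brightest probe set of each of the 10 genes on every array, by group (x axis); points are arrays, short lines are group means, every panel spans the same number of log2 units, and the grey band marks the array medians, 5.59 to 5.64. Col3a1 drops from 9.73 and 9.51 in fed liver to 7.34 and 7.26 in fasted wild-type liver, and Dcn stands higher in both fasted groups.

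Type I and type III collagen are the main fibrillar collagens of the liver matrix. Col3a1 encodes the single chain of type III collagen, and Col1a1 and Col1a2 encode the chains of type I. The 250 bases before the start sites of Col3a1 and Col1a2 are shown because both collagen genes lay above the array medians on every array. On these brightest probe sets Col3a1 passed the test on fasting and Col1a2 did not. Without probe sets whose identifier ends in _a_at, _s_at or _x_at, the limma calls swapped. Col1a2 then passed (adjusted p = 0.0341) and Col3a1 missed (0.0544), each on a dimmer set. The window of Lrat, described with its levels below, is placed with those of Col3a1 and Col1a2 because Lrat is the other gene that fell more than 2-fold. They come from RefSeq on GRCm38.p6, run 5′ to 3′ towards the start site, and windows of 5 of the 10 genes were searched.
Col3a1, chr1:45311288-45311537, plus strand: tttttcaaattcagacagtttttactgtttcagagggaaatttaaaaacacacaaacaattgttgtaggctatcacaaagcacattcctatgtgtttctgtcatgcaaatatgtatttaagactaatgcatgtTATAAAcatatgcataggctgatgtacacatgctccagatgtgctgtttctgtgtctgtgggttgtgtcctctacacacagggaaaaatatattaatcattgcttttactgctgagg
Col1a2, chr6:4505368-4505617, plus strand: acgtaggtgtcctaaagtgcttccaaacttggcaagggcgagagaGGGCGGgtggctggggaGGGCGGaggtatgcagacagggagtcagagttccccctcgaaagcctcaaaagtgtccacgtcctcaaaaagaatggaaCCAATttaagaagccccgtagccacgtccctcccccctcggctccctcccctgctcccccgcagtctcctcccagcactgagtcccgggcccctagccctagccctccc
Lrat, chr3:82903975-82904224, minus strand: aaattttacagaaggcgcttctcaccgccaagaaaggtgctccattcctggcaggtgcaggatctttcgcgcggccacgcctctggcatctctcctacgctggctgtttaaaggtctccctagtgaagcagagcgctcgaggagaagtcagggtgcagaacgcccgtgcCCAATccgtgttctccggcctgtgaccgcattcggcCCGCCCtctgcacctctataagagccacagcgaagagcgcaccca
Capitals mark matches, on either strand, to CCAAT, to the TATA motif TATAAA and to the GC box GGGCGG, which do not overlap one another here. The CArG box, an element bound by serum response factor, was also searched in its strict form: CC, then 6 A or T, then GG. It has no match in these windows. The Col3a1 window holds TATAAA from 117 to 112 bases before the start. Col1a2 holds GGGCGG at 205 to 200 and at 188 to 183 bases before the start, and CCAAT at 109 to 105. Lrat holds CCAAT at 81 to 77 and GGGCGG, on the opposite strand, at 45 to 40. Such matches are common: of 32851 promoter windows of this length, 33.8% hold CCAAT, 12.4% TATAAA, 32.7% GGGCGG and 1.47% a CArG box. The same search of the remaining windows found 6 GGGCGG matches for Reln and 0 exact matches for Acta2. Forms of the CArG box that depart from the strict pattern were not searched. The count of 0 therefore does not show that the Acta2 window lacks such an element.

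Col3a1 (1427883_a_at) read 9.73 and 9.51 in fed wild-type, 7.34 and 7.26 in fasted wild-type, and 7.97 and 6.79 in fasted Cnot3+/- liver. Both fed arrays lay above all 4 fasted arrays, and the fasted Cnot3+/- pair enclosed the fasted wild-type pair. In wild-type liver Col3a1 fell by 2.32 on the log2 scale with fasting (SE 0.34, adjusted p = 0.0125), to 0.200 of the fed level (95% interval 0.116 to 0.345). Fasted Cnot3+/- liver differed from fed wild-type by -2.24 (adjusted p = 0.0108). The gene's second probe set, 1427884_at, stayed under the array medians throughout, at 4.37 and 4.36 fed, 3.91 and 3.81 fasted wild-type, and 3.93 and 3.94 fasted Cnot3+/-. Its groups were ordered the same way, with a smaller fasting difference of -0.51 (adjusted p = 0.0864 over 45037 probe sets).

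Col1a2 (1450857_a_at) read 8.14 and 8.18 in fed wild-type, 8.17 and 7.80 in fasted wild-type, and 8.26 and 7.80 in fasted Cnot3+/- liver. The groups overlapped, with replicate 1 of each fasted group at or above the lower fed array and replicate 2 below both. The fasting difference was -0.18 (SE 0.19, 95% interval -0.63 to 0.26, adjusted p = 0.693). The interval lies wholly above that of Col3a1, -3.11 to -1.53; the difference between the genes was not tested. A second Col1a2 probe set, 1423110_at, gave another picture. It read 5.73 and 5.55 fed, 4.45 and 4.96 fasted wild-type, and 4.95 and 5.04 fasted Cnot3+/-, with no overlap between fed and fasted arrays. Only 1 of those 6 values is above its array's median, and the fasting difference was -0.93 (adjusted p = 0.0654 over all probe sets). Where this set stood for the gene, after leaving out every probe set whose identifier ends in _a_at, _s_at or _x_at, Col1a2 passed (adjusted p = 0.0341). The third set, 1446326_at, lay near 3.50 on average and was not above the median on any array.

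Col1a1 (1423669_at) read 5.43 and 5.40 in fed wild-type, 4.74 and 4.79 in fasted wild-type, and 5.04 and 4.88 in fasted Cnot3+/- liver. All 6 values were under the array medians, so the type I alpha 1 chain was not shown above background in any group and no fold is given. Within that range the fed arrays were highest and the fasted wild-type arrays lowest, with no overlap. The fasting difference was -0.65 (SE 0.12, adjusted p = 0.0286), and that of fasted Cnot3+/- against fed wild-type was -0.45 (adjusted p = 0.0686). The other probe set, 1455494_at, was also under the medians on every array and gave a fasting difference of -0.32.

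Lrat encodes lecithin retinol acyltransferase, the enzyme that esterifies retinol for storage. Its brightest probe set, 1444487_at, read 8.74 and 8.55 in fed wild-type, 7.50 and 7.38 in fasted wild-type, and 7.73 and 7.56 in fasted Cnot3+/- liver. Fed arrays were highest, fasted wild-type arrays lowest and fasted Cnot3+/- arrays between them, with no overlap among the 3 groups. Lrat fell by 1.20 in fasted wild-type liver (SE 0.13, adjusted p = 0.00497), 2.30-fold (95% interval 1.86 to 2.85). Against fed wild-type, the fasted Cnot3+/- level was 2.00-fold lower (95% interval 1.61 to 2.48, adjusted p = 0.00712). The second probe set, 1421345_at, is the one whose annotation cites a RefSeq transcript, and it did not give the same separation. It read 5.28 and 5.03 fed, 4.62 and 5.05 fasted wild-type, and 4.52 and 4.76 fasted Cnot3+/-, all under the medians, with a fasting difference of -0.32 (adjusted p = 0.502). The fall of Lrat therefore rests on a probe set annotated through another sequence record. Among the other called genes, the brightest sets of Col3a1, Col1a1 and Tagln are also annotated through such records. Those of Dcn and Acta2 cite RefSeq transcripts.

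Reln encodes reelin, a large secreted glycoprotein that stellate cells make in the liver. It read 10.03 and 9.80 in fed wild-type, 10.02 and 9.61 in fasted wild-type, and 10.06 and 9.55 in fasted Cnot3+/- liver. The 3 groups overlapped, and replicate 1 was the higher array in each. The fasting difference was -0.10 (SE 0.21, 95% interval -0.60 to 0.40, adjusted p = 0.868), and fasted Cnot3+/- differed from fed wild-type by -0.11 (adjusted p = 0.845). Its other probe set was under the medians on all 6 arrays.

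Dcn and Lum encode decorin and lumican, small leucine-rich proteoglycans that bind collagen fibrils. Dcn read 11.24 and 11.25 in fed wild-type, 11.87 and 11.84 in fasted wild-type, and 12.09 and 11.80 in fasted Cnot3+/- liver. It was the one gene of the 10 to rise: both fed arrays lay below all 4 fasted arrays. The rise in wild-type liver was 0.61 (SE 0.14, adjusted p = 0.0497), 1.53-fold (95% interval 1.23 to 1.90), and fasted Cnot3+/- stood 1.62-fold above fed wild-type (log2 difference 0.70, adjusted p = 0.0256). The other Dcn probe set, 1441506_at, was under the medians on all 6 arrays. Its fasting difference in wild-type liver was 0.01 (adjusted p = 0.979 over all probe sets). Lum, read by a single probe set, was at 8.80 and 8.24 fed, 8.40 and 8.39 fasted wild-type, and 8.01 and 7.94 fasted Cnot3+/-. The fed arrays enclosed the fasted wild-type pair, and both fasted Cnot3+/- arrays were below the other 4. Lum did not pass in wild-type fasting (difference -0.12, adjusted p = 0.799) or in fasted Cnot3+/- against fed wild-type (difference -0.55, adjusted p = 0.143).

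Pdgfrb encodes the beta receptor for platelet-derived growth factor, a mitogen of stellate cells and pericytes. It read 6.91 and 7.34 in fed wild-type, 6.17 and 6.46 in fasted wild-type, and 7.11 and 6.48 in fasted Cnot3+/- liver. The fasted wild-type arrays were below the fed ones without overlap, while the fasted Cnot3+/- pair reached into the fed range. The fasting difference was -0.81 (SE 0.24, 95% interval -1.38 to -0.24, adjusted p = 0.121). The second probe set, 1417148_at, was above the medians on every array too, at 6.61 and 6.69 fed, 6.32 and 6.57 fasted wild-type, and 6.61 and 6.64 fasted Cnot3+/-. Its fasting difference of -0.20 had an adjusted p of 0.549, so neither set passed and the sets differed in size.

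Acta2 and Tagln encode smooth muscle alpha-actin and transgelin, contractile proteins of smooth muscle and of activated stellate cells. Tagln read 7.72 and 7.28 in fed wild-type, 6.65 and 6.76 in fasted wild-type, and 6.52 and 6.69 in fasted Cnot3+/- liver, all fasted arrays lying below both fed ones. It fell by 0.79 in fasted wild-type liver (SE 0.17, adjusted p = 0.0438), and fasted Cnot3+/- liver was 1.86-fold below fed wild-type (log2 difference -0.89, adjusted p = 0.0240). Acta2 (1416454_s_at) read 7.04 and 6.88 fed, 6.55 and 6.50 fasted wild-type, and 6.21 and 6.48 fasted Cnot3+/-. The order was the same, fed above both fasted groups. In wild-type liver its difference of -0.44 did not pass (SE 0.14, adjusted p = 0.137), and in fasted Cnot3+/- against fed wild-type it did, at -0.61 (adjusted p = 0.0418). The remaining Acta2 sets, 1456658_at and 1444105_at, were under the medians on every array, with fasting differences of 0.08 and -0.02.

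**Figure D2:**
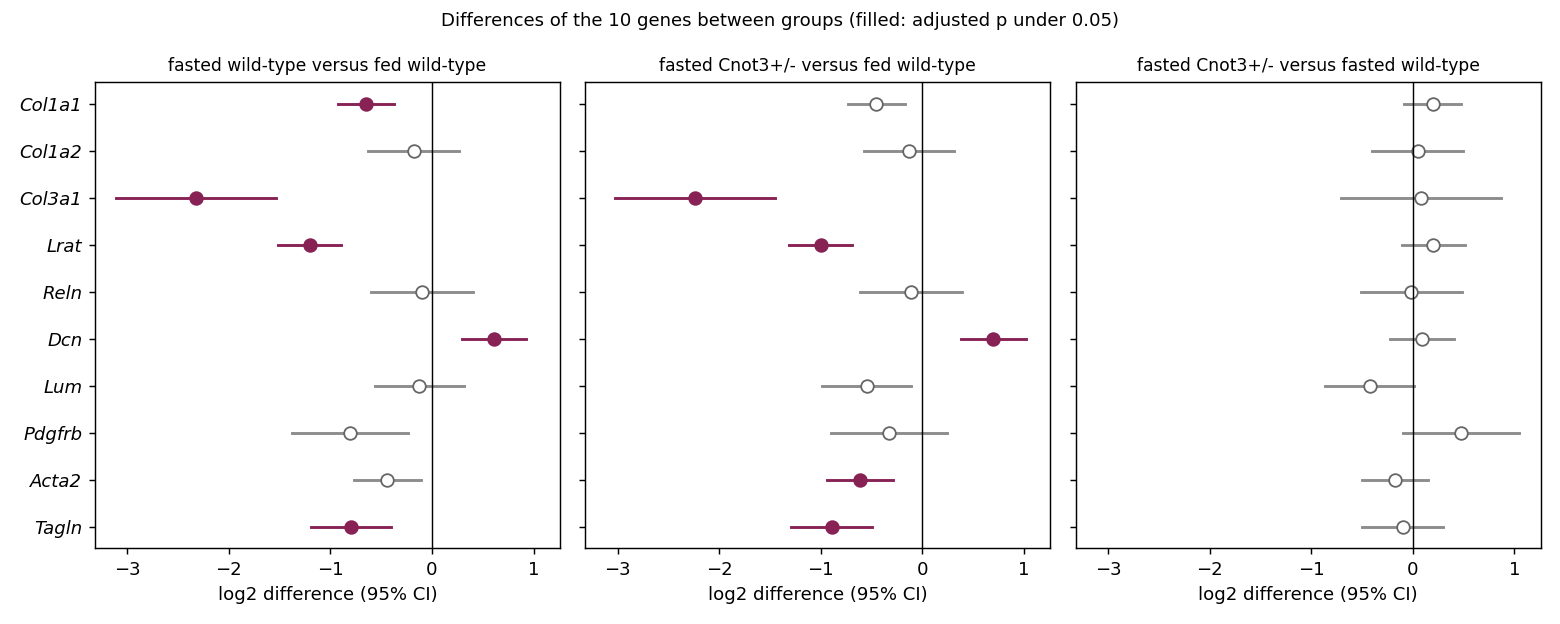
Log2 difference (x axis) of each of the 10 genes in the 3 comparisons, with the 95% interval of the limma fit. Wild-type fasting and fasted Cnot3+/- against fed wild-type, which share the fed arrays, each put Col3a1 farthest to the left (-2.32 and -2.24) and Dcn alone to the right (0.61 and 0.70); the genotype comparison lies between -0.42 and 0.48.

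Fasted Cnot3+/- liver against fed wild-type liver called 5 of the 10 genes: Col3a1, Lrat, Tagln and Acta2 were lower and Dcn higher. Of all genes, 3.68% were lower, 3.88% higher and 7.56% called in either direction. The median of the 10 genes was -0.50, against 0.00 over all genes, and 7 of the 10 did not overlap between the groups, as 48.0% of all genes did not. This comparison uses the same 2 fed arrays as wild-type fasting, so the values stand side by side and are no second, independent measure.

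Fasted Cnot3+/- and fasted wild-type liver were compared directly, the comparison that holds feeding fixed. None of the 10 genes passed: limma called 0 of 10 (0% of all genes), with 0 of the 10 and 1011 of all genes at an unadjusted p under 0.05. Differences ran from -0.42 for Lum to 0.48 for Pdgfrb, with a median of 0.07. For Col3a1 the difference was 0.08 (95% interval -0.70 to 0.87), an interval wide enough to hold a change of 1.83-fold upward. For Lrat it was 0.20 (95% interval -0.11 to 0.51) and for Dcn 0.09 (-0.23 to 0.40). Lum had the smallest p (difference -0.42, SE 0.19, 95% interval -0.86 to 0.01, adjusted p = 0.863). The 2 groups did not overlap for 5 of the 10 genes, against 36.0% of all genes. These intervals do not show that the genotypes were alike.

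The replicates of a group differed more for some of these genes than for most. Within the fasted Cnot3+/- pair, replicate 2 was lower than replicate 1 by 1.18 for Col3a1 and by 0.63 for Pdgfrb. The median gap of the 10 genes, regardless of sign, was 0.20 in the fed, 0.10 in the fasted wild-type and 0.28 in the fasted Cnot3+/- pair. Over all genes it was 0.14, 0.14 and 0.17. In the fasted Cnot3+/- pair 8 of the 10 genes were lower on replicate 2, and 43.5% of all genes were.

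Fits with 1 array fewer made fewer calls over all genes, 137 to 458 in wild-type fasting in place of 913. With any 1 of the 4 arrays of wild-type fasting left out, the adjusted p of Col3a1 was 0.0613 to 0.0973 (difference -2.43 to -2.21), that of Col1a1 0.110 to 0.180 (difference -0.67 to -0.63) and that of Dcn 0.159 to 0.243 (difference 0.60 to 0.63). None of these 3 passed in those smaller fits, whichever array was left out, while their differences stayed about as large. Tagln passed only without fed replicate 2 (adjusted p = 0.0455) and reached 0.235 without fasted wild-type replicate 1, its difference running from -1.02 to -0.57. Lrat passed in all but 1 of these fits, missing at 0.0503 without fasted wild-type replicate 2. For fasted Cnot3+/- against fed wild-type, Lrat passed without any single array (0.0189 to 0.0379). Col3a1 missed only without fed replicate 1 (0.0549), and its difference ran from -2.83 without fasted Cnot3+/- replicate 1 to -1.65 without replicate 2. Dcn passed only without fasted Cnot3+/- replicate 2 (0.0322), Tagln only without fed replicate 2 (0.0265), and Acta2 in none (0.0530 to 0.178). Lum passed there only without fed replicate 2 (difference -0.83, adjusted p = 0.0424).

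Probe sets of 1 gene often read differently. When all 45037 probe sets that are not controls were fitted together, 1.89% were called in wild-type fasting, and of the 10 brightest sets 2 were, those of Col3a1 (adjusted p = 0.0319) and Lrat (adjusted p = 0.0135). Of the 10 other sets 0 were called and 7 had a negative difference; 8 of these 10 were under the medians on every array. For fasted Cnot3+/- against fed wild-type 3.07% of probe sets were called, with 4 of the 10 brightest sets (Col3a1, Lrat, Dcn and Tagln) and 0 of the 10 others. Between the fasted genotypes 0% were called. With genes read from sets not ending in _a_at, _s_at or _x_at, Col3a1 was represented by its dim set and missed both in wild-type fasting (difference -0.51, adjusted p = 0.0544) and in fasted Cnot3+/- against fed wild-type (difference -0.43, adjusted p = 0.0731). Acta2 then read -0.16 in fasted Cnot3+/- against fed wild-type (adjusted p = 0.677), and Dcn missed in wild-type fasting at 0.0505 with the same difference.

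**Figure D3:**
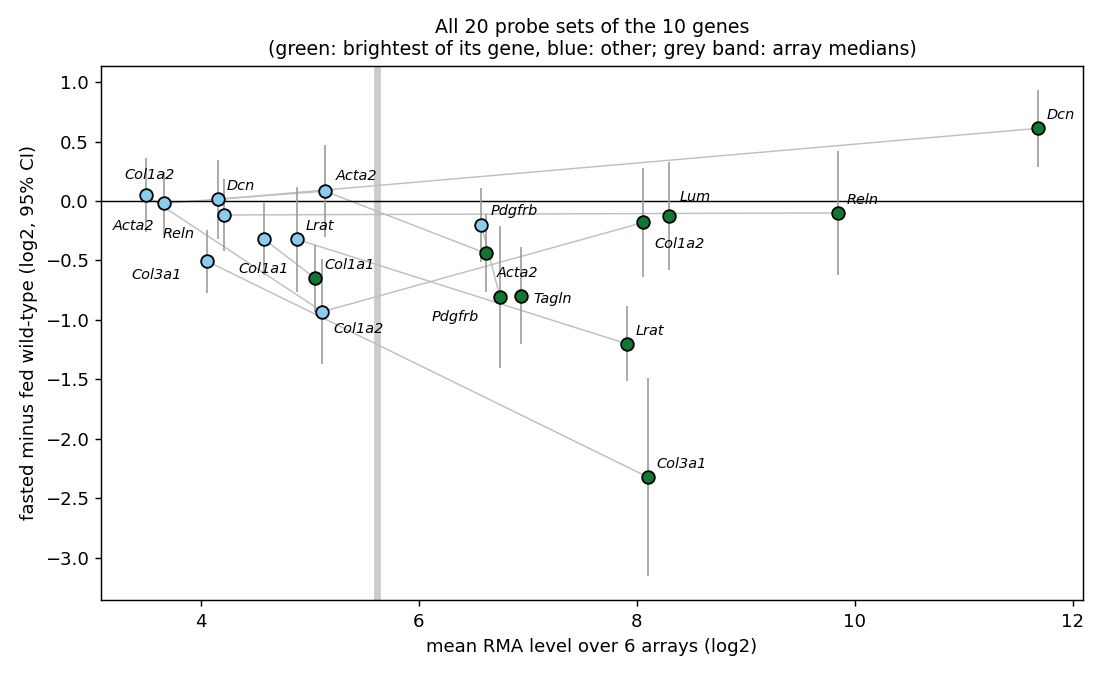
Fasting difference in wild-type liver (y axis, log2, with 95% interval) against mean level over 6 arrays (x axis, log2) for all 20 probe sets; green points are the brightest set of each gene, blue points the others, lines join sets of a gene, and the grey band marks the array medians. The bright Col3a1 and Lrat sets read -2.32 and -1.20, and their dimmer sets -0.51 and -0.32; among the blue points the lowest is a Col1a2 set at -0.93, and the Pdgfrb set at -0.20 is the one right of the band.

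Some genes outside the set had a similar profile over the 6 arrays. Likeness was measured as the root mean square difference of log2 values, each gene centred on its own mean, among genes above the median level. The nearest were picked from 9095 or 9096 such genes, a search that by itself finds small distances over 6 arrays. Closest to Col3a1 were Hsd3b2 (0.20), Serpina6 (0.25) and Nat8f1 (0.26), where the spread of Col3a1 itself was 1.13. Closest to Lrat were Hhex (0.07), Stim2 (0.09) and Nrn1 (0.09), against a spread of 0.53. For Dcn they were Ednrb (0.04), Gja1 (0.05) and Hnrnpa1 (0.05), against 0.32, and for Tagln Slc39a10 (0.07), Atm (0.09) and Khk (0.09), against 0.42. Col1a1 was closest to Map3k4, Fcsk and Dgcr6, and Acta2 to Qprt, Cox16 and Rnf13. Pdgfrb was closest to Pla2g15 (0.10), Sgf29 (0.13) and Tmem29 (0.14), against 0.41. On their brightest sets, Col1a2, Reln and Lum overlapped between fed and fasted wild-type arrays. Col1a2 lay nearest Ivd, Mylk and Luc7l3, and Reln nearest Nfib, Kbtbd13 and Trak1. Lum lay nearest Slc7a4 (0.11), Anks1b (0.12) and Fam167b (0.12), against a spread of 0.29. No gene named here as nearest was itself one of the 10.

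Lists of related genes and of cell type markers were examined next, and no list was tested as a set. Over all genes, 3.15% fell and 1.87% rose in wild-type fasting. In fasted Cnot3+/- against fed wild-type, 3.68% were lower and 3.88% higher. Each list gene was read from its brightest probe set alone, and its other sets were not compared. Some of these sets end in _a_at, _s_at or _x_at, among them those of Serpinh1, Pcolce, Steap4 and Actg1. The first list holds genes that fold, process and bind collagen. Of 15 measured, 4 fell in wild-type fasting and 0 rose, with a median of -0.25. Serpinh1, the collagen chaperone HSP47, read 8.13 and 8.48 in fed and 6.90 and 6.96 in fasted wild-type liver, a difference of -1.37 (adjusted p = 0.0107). Pcolce, an enhancer of procollagen C-proteinase, differed by -1.39 (adjusted p = 0.0152), Crtap, part of the prolyl 3-hydroxylation complex, by -0.74 (0.0432), and Sparc, a collagen-binding matricellular protein, by -0.72 (0.0232). The same 4 were lower in fasted Cnot3+/- than in fed wild-type liver, with 0 higher and a median of -0.28. With 1 array left out, Serpinh1 passed in 1 of 4 wild-type fasting fits and the other 3 in 0 of 4. The differences in those fits ran from -1.55 to -1.20 for Serpinh1, -1.48 to -1.31 for Pcolce, -0.95 to -0.54 for Crtap and -0.81 to -0.63 for Sparc.

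Of 15 other collagen chains, 12 had a negative fasting difference in wild-type liver and the median was -0.33, but only Col14a1, a fibril-associated collagen, passed. It read 9.23 and 8.89 fed and 8.07 and 8.27 fasted, a difference of -0.89 (adjusted p = 0.0393; 0 of 4 fits with an array left out), and -0.92 in fasted Cnot3+/- against fed wild-type (0.0270). Between the fasted genotypes none of these chains was called; the basement membrane chains Col4a1 and Col4a2 had the smallest p, with differences of 0.66 and 0.46 (adjusted p = 0.863 for each). Among 22 other matrix and matrix turnover genes 0 were called in wild-type fasting, with a median of 0.04. The smallest p were those of Ecm1 (0.56, adjusted p = 0.0662) and Lamb1 (-0.46, 0.204), and Ecm1 passed in fasted Cnot3+/- against fed wild-type (0.66, 0.0307).

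Of 17 TGF-beta pathway genes 1 rose in wild-type fasting and 0 fell, with a median of 0.01. It was Ccn2, the matricellular protein CTGF, which read 7.13 and 6.28 fed, 8.92 and 9.08 fasted wild-type, and 9.25 and 8.99 fasted Cnot3+/-. Ccn2 rose by 2.29 (4.91-fold, adjusted p = 0.00583), against the direction of Col3a1, and passed in 2 of 4 fits with an array left out. In fasted Cnot3+/- against fed wild-type Ccn2 was higher by 2.41 and Ltbp4, a latent TGF-beta binding protein, differed by -0.76 (adjusted p = 0.0182). Of 8 PDGF ligands and partners 1 rose, the alpha receptor Pdgfra, by 0.59 (adjusted p = 0.0354; 0 of 4 fits with an array left out), with a list median of -0.04. Pdgfra was 0.90 higher in fasted Cnot3+/- than in fed wild-type liver (0.00660), and Pik3r1, a regulatory subunit of PI3-kinase, differed by -1.24 there (0.0269).

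Of 18 vitamin A genes 4 fell in wild-type fasting and 0 rose, although the list's median was -0.02. Cyp26a1, which breaks down retinoic acid, read 11.00 and 9.96 fed, 7.27 and 6.79 fasted wild-type, and 8.06 and 6.87 fasted Cnot3+/-, with no overlap between fed and fasted arrays. It fell by 3.45 (adjusted p = 0.00872). Rdh11, a retinal reductase, fell by 1.67 (0.0124), Aldh1a7 by 0.91 (0.0214) and Rarb, a retinoic acid receptor, by 0.52 (0.0456). With 1 array left out Cyp26a1 passed in 2 of 4 fits, Rdh11 in 1 and Aldh1a7 and Rarb in 0. In fasted Cnot3+/- against fed wild-type the same 4 and Aldh1a1, a retinal dehydrogenase (difference -0.51, 0.0377), were lower. Rarb stood at 5.57 and 5.64 in fasted Cnot3+/- liver, at the array medians. Of the 3 reelin receptor and adaptor genes, 0 were above the medians on all 6 arrays, and Lrp8 and Dab1 were under them on every array, so the 0 calls there say nothing about these genes.

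Of 18 smooth muscle contractile genes 2 fell in wild-type fasting and 0 rose, with a median of -0.15. They were Myl9, a myosin light chain (difference -1.26, adjusted p = 0.0326), and Actn1, an actin crosslinker (-0.84, 0.0313), each passing in 0 of 4 fits with an array left out (differences -1.54 to -0.99 and -1.03 to -0.64). Myl9 read 5.21 and 5.71 in fasted wild-type and 5.37 and 5.71 in fasted Cnot3+/- liver, so on 1 array of each fasted group it was not above the array medians and its level there is not distinguished from background. Smtn also passed in fasted Cnot3+/- against fed wild-type (-0.75, 0.0184), with fasted Cnot3+/- levels of 5.51 and 5.62 that lie at or under the range of the array medians. The smooth muscle genes Myh11, Cnn1, Actg2 and Myocd were under the medians on all 6 arrays. Of 8 targets of serum response factor, 2 rose in wild-type fasting, Ccn2 and the cytoplasmic actin Actg1 (1.21, 0.0301; 0 of 4 fits with an array left out), and 0 fell. Between the fasted genotypes 0 genes were called in each of these lists.

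**Figure D4:**
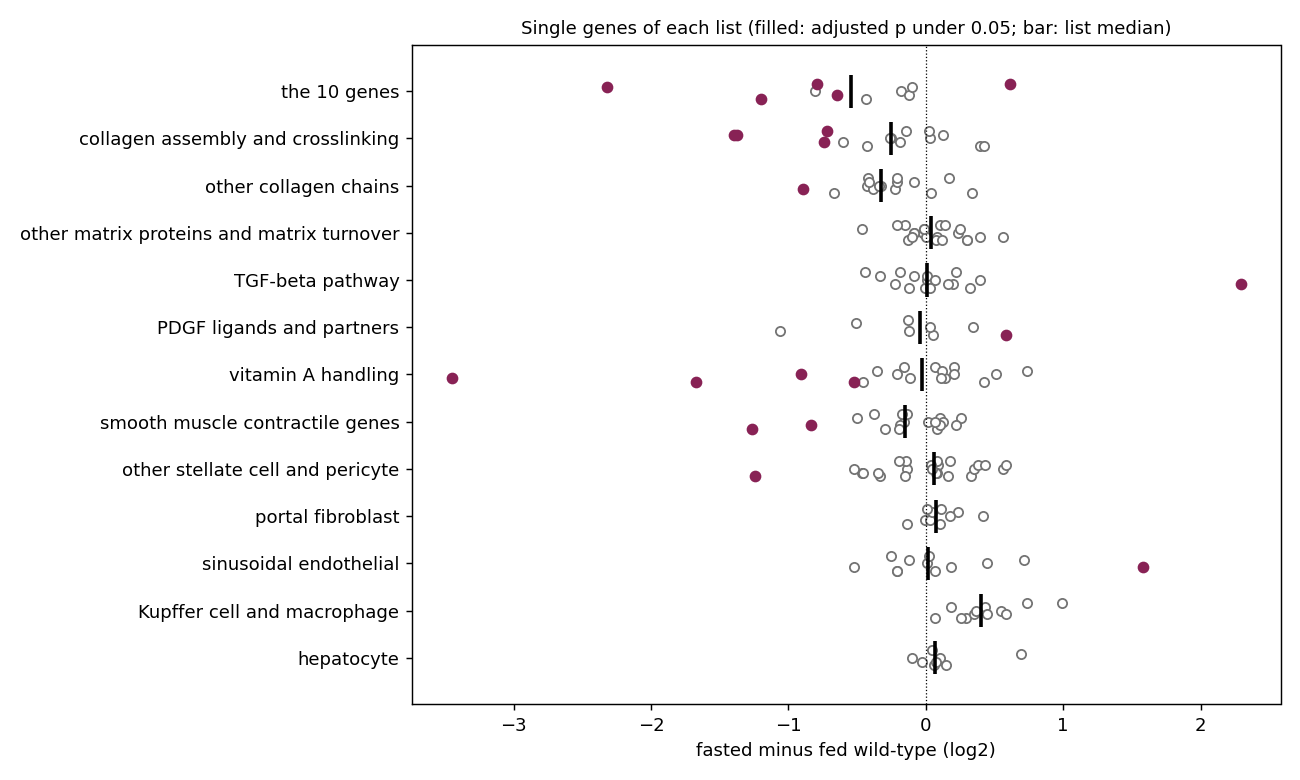
Log2 difference (x axis) of every measured gene of each list in wild-type fasting; points are genes, filled where limma called them, and vertical marks are list medians. The collagen assembly genes and the other collagen chains have medians of -0.25 and -0.33, and those of the other stellate cell, hepatocyte and sinusoidal endothelial markers are 0.06, 0.07 and 0.02.

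Markers of the cell types in the tissue were set beside these values. The 24 other stellate cell and pericyte markers were divided in direction: 14 had a positive and 10 a negative difference in wild-type fasting, the median was 0.06, and 1 fell (Steap4, -1.24, adjusted p = 0.0217; 0 of 4 fits with an array left out). Their summed level on the linear scale was 10085 and 10027 on the fed, 9958 and 9544 on the fasted wild-type, and 11597 and 9400 on the fasted Cnot3+/- arrays. Bright markers weigh most in this sum, and some moved in opposite directions in wild-type fasting. Steap4 read 11.10 and 11.19 fed and 9.85 and 9.95 fasted. Ecm1, not called, read 10.77 and 10.54 fed and 11.30 and 11.13 fasted. In fasted Cnot3+/- against fed wild-type Ecm1 and Ednrb were higher (each by 0.66) and Steap4 lower (-1.53). Portal fibroblast markers gave 0 calls of 10 (median 0.07), with Thy1, Gli1, Cd34 and Pi16 under the medians on all 6 arrays, and mesothelial markers 0 of 6 (median -0.01), with Msln, Wt1, Gpm6a and Lrrn4 under the medians. Hepatocyte markers gave 0 calls of 8 (median 0.07), with sums from 203482 to 222328 over the 6 arrays.

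Kupffer cell and macrophage markers all had positive differences in each comparison, and some passed in 1 of the 3. All 12 had a positive difference in wild-type fasting (median 0.40, 0 called) and between the fasted genotypes (median 0.47, 0 called), and 6 of 12 were higher in fasted Cnot3+/- than in fed wild-type liver (Marco, Cd163, C1qa, C1qb, C1qc and Vsig4). Their summed level was 7290 and 8635 fed, 9862 and 10519 fasted wild-type, and 17032 and 11826 fasted Cnot3+/-. In fasted Cnot3+/- against fed wild-type, 3.88% of all genes were called higher. All 12 Kupffer cell and macrophage markers were above the medians on all 6 arrays. Their part in the differences of the 10 genes was not tested. Sinusoidal endothelial markers gave 1 call of 12 in wild-type fasting, Lyve1 (1.58, adjusted p = 0.00456; 3 of 4 fits with an array left out), with a median of 0.02. Between the fasted genotypes 10 of the 12 had a negative difference (median -0.25, 0 called), and in fasted Cnot3+/- against fed wild-type 8 did (median -0.09, Lyve1 called higher). Their summed level was 6407 and 6122 fed, 6544 and 6645 fasted wild-type, and 5328 and 6335 fasted Cnot3+/-, and their part in the differences of the 10 genes was not tested. Cholangiocyte markers gave 0 calls of 5 (median -0.17), with Krt7 and Cftr under the medians on every array. Most markers of the remaining cell types were under the medians on every array: 5 of 7 for lymphocytes, 4 of 5 for neutrophils, 2 of 3 for erythroid cells, 5 of 6 for skeletal muscle and 3 of 3 for adipocytes. Their 0 calls are therefore no measure of those cells.

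The calls of list and marker genes in fasted Cnot3+/- against fed wild-type liver were refitted with each of its 4 arrays left out. Serpinh1, Ccn2, Pdgfra, Cyp26a1, Rdh11, Rarb, Steap4, Lyve1 and Cd163 passed in 4 of 4 fits. Aldh1a7, C1qb and Marco passed in 3 of 4. Pcolce, Crtap, Sparc, Col14a1, Ltbp4, Pik3r1, Myl9, Ednrb, C1qa, C1qc and Vsig4 passed in 1 of 4, and Actn1, Smtn, Aldh1a1 and Ecm1 in 0 of 4.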

How the data were processed

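The table deposited by the authors holds log2 values from RMA, as named in the submitters' processing notes; the version is not given in the sources used here. Per the labels' protocols, cRNA was prepared from 10 ug of total liver RNA. The values were used as deposited. Of 45101 probe sets, 64 are controls, 34945 name 1 gene, 932 name several and 9160 none. A gene's value is its brightest single-gene probe set by the mean over 6 arrays, which gave 18193 genes, 18145 of them found in a reference annotation used for names only.

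The 3 group means were fitted with limma 3.58.1 on R 4.3.3 (residual df 3, prior df 4.24), with Benjamini-Hochberg adjustment over all genes within each comparison; a second fit took all 45037 probe sets that are not controls. SE is the moderated standard error. P-values measure the spread between these arrays only. In simulated data with the spread of these genes, the fit of wild-type fasting recovered 53% of 2-fold and 89% of 4-fold changes. There 100 genes changed by each size, while 913 were called in the data. Recovery under the adjustment depends on how many genes change, so these rates are a rough guide. A gene that did not pass may therefore still have changed. The genes and lists were chosen with earlier results of these data known. Named were all 10 genes, list genes that passed or, where none did, up to the 2 with the smallest p, and for each of the 10 the 3 genes nearest in profile. Motifs were searched with Python 3.11.15 in RefSeq promoter windows. Alternatives were the mean over probe sets, dropping probe sets ending in _a_at, _s_at or _x_at, cyclic loess and centring on brighter genes. Others were a filter on the median level, a variance trend, the replicate number as a block, and each array left out.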

Additional observations from a re-analysis of the deposited data

How the results depend on the processing

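No called difference changed direction under any alternative run. With the mean over probe sets, 3 of the 10 genes were called in wild-type fasting in place of 5, Col1a1 missing at an adjusted p of 0.0549 and Dcn at 0.142. Without probe sets ending in _a_at, _s_at or _x_at, 3 in place of 5 were called in fasted Cnot3+/- against fed wild-type. Col3a1 was then read from its dim set. Tagln missed in wild-type fasting after centring on brighter genes (0.0532), and Acta2 in fasted Cnot3+/- against fed wild-type with a variance trend (0.0528) or the mean over probe sets (0.133). With 1 array left out, wild-type fasting called 137 to 458 genes in place of 913 and 0 to 2 of the 10 in place of 5. Fasted Cnot3+/- against fed wild-type called 597 to 929 in place of 1375, and 1 to 4 of the 10. Between the fasted genotypes 0 to 2 genes were called, and 0 of the 10. Such fits have fewer arrays, and a lone array is assumed to vary like the other groups. The replicate numbers were taken as labels only: gaps between replicates correlated over genes at 0.45 between the fasted groups but at 0.04 and -0.01 with the fed group. With the replicate block, 1206 genes and 4 of the 10 were called in wild-type fasting (Tagln at 0.0502), 1708 and 5 in fasted Cnot3+/- against fed wild-type, and 0 between the fasted genotypes. The filter on the median level removed Col1a1 and Acta2. Limits are 2 arrays a group, the choice of probe set (Col3a1 at -2.32 or -0.51 and Col1a2 at -0.18 or -0.93 in wild-type fasting), and levels under the array medians for Col1a1 and most second probe sets.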
